A study of Rattus norvegicus with 20 samples.

Results

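The 6 mature miRNAs of the miR-34 and miR-449 family described here are rno-miR-34a-5p, rno-miR-34b-5p, rno-miR-34b-3p, rno-miR-34c-5p, rno-miR-34c-3p, and rno-miR-449a-5p. They were listed by name from miR-34a, the miR-34b/c cluster, and miR-449a, without miR-34a-3p, which had 5 reads in 1 library, and miR-449a-3p, which had none. They are 6 of 617 miRNAs with reads. All 6 were among the 500 miRNAs with at least 10 reads in at least 5 of the 20 libraries, which were tested. Small RNA was sequenced from punches of the adBNST, the anterodorsal part of the bed nucleus of stria terminalis, a region of the extended amygdala that takes part in anxiety and stress responses. The rats were Sprague-Dawley, untreated apart from their housing, and formed 4 groups of 5, namely group housed (GH) males, socially isolated (SI) males, GH females, and SI females. All were weaned on postnatal day 21, and SI rats were then kept singly and GH rats with same-sex littermates for 6 weeks. At 9 weeks of age all had been tested in the elevated plus maze, and they were killed hours later. According to the methods, the females to be sequenced were picked for RNA quality and for a spread of estradiol levels.

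MicroRNAs are short RNAs that guide Argonaute proteins to mRNAs, which they recognize mainly through bases 2 to 8, the seed. Mir34a and the Mir34b/Mir34c cluster are textbook targets of the transcription factor p53, and miR-34 family members restrain the cell cycle. The miR-34b/c and miR-449 genes are also known for their high expression in multiciliated cells, such as those that line the ventricles and the choroid plexus. In the brain, miR-34 members have been studied in stress, with the corticotropin-releasing factor receptor Crhr1 among the known targets of miR-34c. Either arm of a hairpin can yield the mature strand, so a 5p and a 3p name of the same miRNA share a precursor but carry different seeds.

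The sequences below show the seeds, in capitals, by which the members fall into 2 groups. They are the mature sequences of RefSeq on the rat genome GRCr8, in which all 6 members were matched by name, and each was also the reference form in the reads.
miR-34a-5p: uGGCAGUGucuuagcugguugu
miR-34b-5p: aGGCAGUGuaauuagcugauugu
miR-34c-5p: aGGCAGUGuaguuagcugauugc
miR-449a-5p: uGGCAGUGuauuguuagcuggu
miR-34b-3p: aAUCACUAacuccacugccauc
miR-34c-3p: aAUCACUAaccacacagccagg

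The 4 members of the 5p arms shared the seed GGCAGUG, and the 2 members of the 3p arms shared the seed AUCACUA. Aligned from the first base, miR-34b-5p and miR-34c-5p had the same base at 21 of 23 positions, and miR-34b-3p and miR-34c-3p at 17 of 22. miR-449a-5p and miR-34a-5p matched at 15 of 22 positions. On GRCr8, which is not the build used by the authors, miR-34a-5p lies at chr5:165815971-165815992 on the plus strand. miR-34b-5p lies at chr8:60306657-60306679 and miR-34b-3p at chr8:60306621-60306642, both on the minus strand. miR-34c-5p lies at chr8:60306133-60306155 and miR-34c-3p at chr8:60306101-60306122, so Mir34b and Mir34c are neighbors, and the annotation places them between the genes Hoatz and Btg4. miR-449a-5p lies at chr2:46403925-46403946 on the plus strand, next to Mir449c and between Mcidas, a regulator of multiciliated cell formation, and Gpx8.

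The libraries held 3428930 to 11383055 miRNA reads, and the 6 members together took 0.05102% to 0.3384% of them. The 2 SI rats numbered I17 carry opposite sexes in the sample labels and in their file names, and they were placed by the labels. The library of the SI female I16F had the fewest distinct sequences of the 20 (11399), the lowest summed count of the endothelial list (511 normalized counts, 3059 to 7012 in the other SI females), and the highest summed count of the blood list (25808). That sum was miR-486 alone, with the other 3 blood miRNAs, miR-451-5p, miR-144-3p, and miR-144-5p, listed at 0 in I16F, and in the 20 libraries miR-486 made up 97.2% to 100% of the list. In the SI male I20M the summed normalized count of a list of choroid plexus and other epithelial miRNAs was 120958, against 7394 to 10226 in the other 4 SI males and 5734 to 16765 in GH males. Most of the sum in I20M was miR-204-5p, at 116298. The neuronal list was high in all libraries, with miR-9a-5p between 259499 and 607442 normalized counts, and no miRNA marker used here tells the adBNST from other brain regions. Nothing in the labels states more than that each sample is a rat, so the p-values measure the spread between these rats. Litters and cages are not given, and GH rats, which were housed with littermates, may share them.

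Levels are given as normalized counts, the reads divided by the TMM-scaled library size and multiplied by the mean scaled library size. A mature miRNA is read from end to end, so levels do not grow with its length and were not divided by it. rno-miR-34b-3p was the most abundant member, with a median of 3624 normalized counts and a range of 1020 to 10176 over the 20 rats, and it ranked 115 of the 500 tested miRNAs by its mean level. rno-miR-34c-5p followed with a median of 2701 (448 to 8763, rank 135). The order of these 2 members was not stable, since miR-34b-3p was the higher in 12 of 20 rats. rno-miR-34a-5p had a median of 553 (197 to 1418, rank 220) and rno-miR-34c-3p one of 502 (241 to 1845, rank 221). miR-34c-5p exceeded miR-34a-5p in 19 of 20 rats, whereas miR-34a-5p exceeded miR-34c-3p in only 11 of 20. The 2 lowest members were rno-miR-449a-5p (0 to 94.5, median 21.1) and rno-miR-34b-5p (0 to 69.1, median 19.6), which were below miR-34c-3p in every rat. miR-449a-5p was the higher of the 2 in 10 rats, the lower in 7, and tied with miR-34b-5p in 3. No reads of miR-449a-5p were listed in 7 libraries, and none of miR-34b-5p in 5.

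The reads of a member came from few distinct sequences. For miR-34a-5p, 120 to 1743 reads per library were spread over 3 to 24 distinct sequences, and for miR-34c-5p 365 to 6212 reads over 3 to 40. miR-34b-3p had 623 to 10431 reads from 18 to 54 sequences, and miR-34c-3p had 147 to 1559 reads from 1 to 25. miR-34b-5p and miR-449a-5p never had more than 5 distinct sequences or 98 reads in a library. Of the 487 reads of miR-34b-5p in all libraries, 30 were assigned to miR-34c-5p as well and 18.7% carried a mismatch. The neighboring hairpin Mir449c was nearly without reads as well, with 5 reads of miR-449c-5p in 1 library and none of miR-449c-3p.

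**Figure D1:**
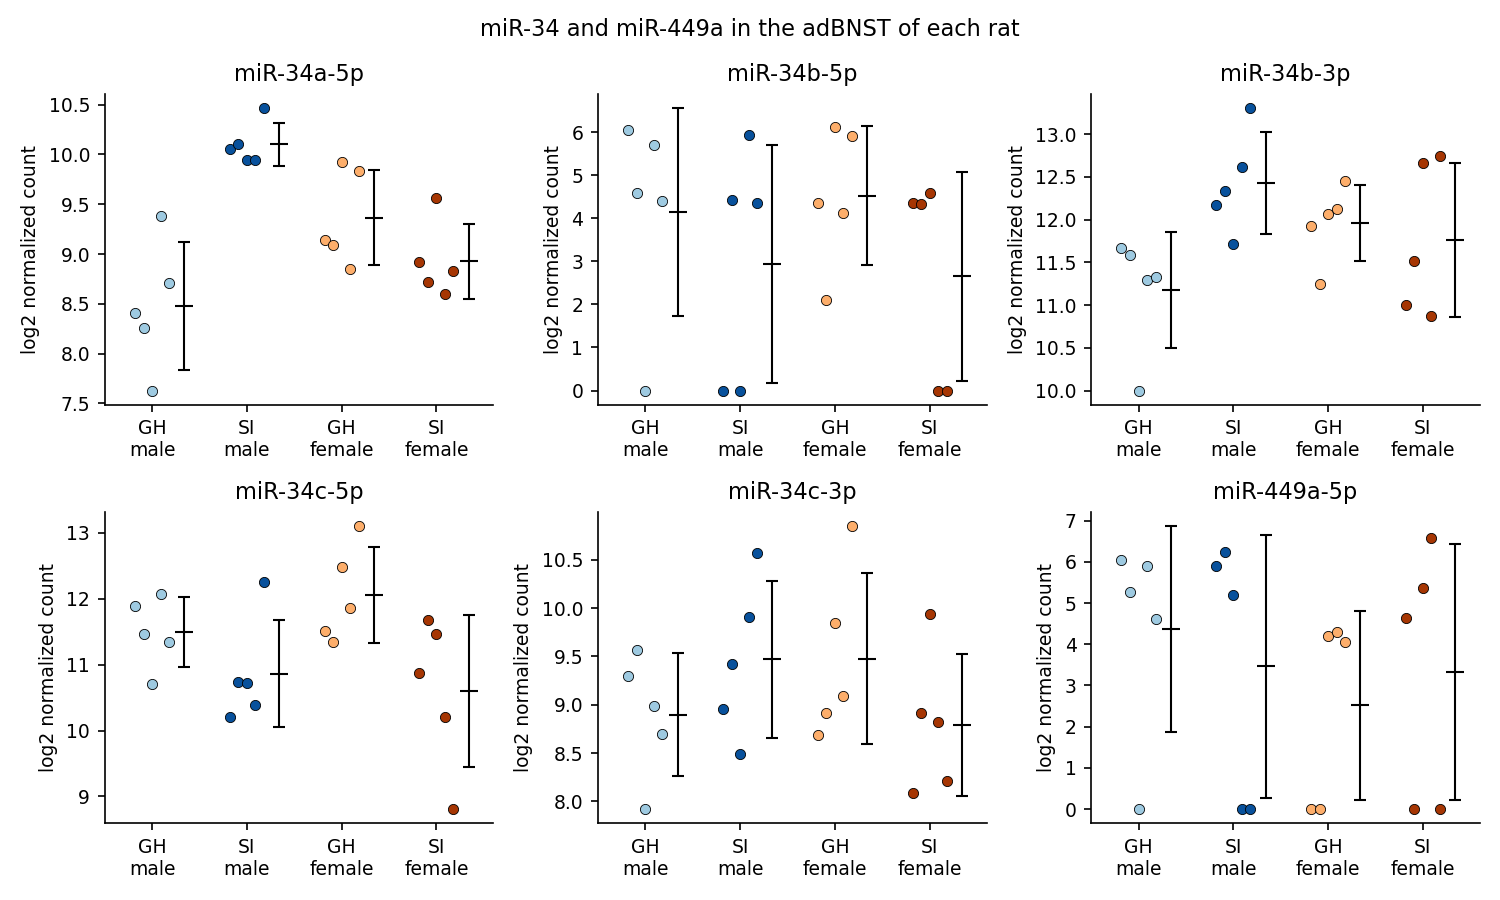
Log2 normalized count (y axis, plus 1 before the logarithm) of each member in each of the 20 rats, by group (x axis). Points are rats, and the bar beside them is the group mean with its SD (n = 5). The 5 SI males lie above the 5 GH males for miR-34a-5p and miR-34b-3p, and libraries without reads lie at 0 for miR-34b-5p and miR-449a-5p.

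The comparison of SI with GH males asks how adolescent isolation relates to the miRNA levels of adult males. rno-miR-34a-5p was 2.87-fold higher in SI compared to GH males. It was the only member past the threshold in edgeR, while miR-34b-3p was 2.39-fold higher and just missed it. The study, which used DESeq2, had listed both miR-34a-5p and miR-34b-3p as higher in SI males. In GH males, miR-34a-5p stood at 340 normalized counts in G16M, 306 in G19M, 197 in G18M, 663 in G20M, and 419 in G21M. In SI males it stood at 1061 in I15M, 1104 in I19M, 981 in I22M, 980 in I17M, and 1418 in I20M. Every SI male was above every GH male, and the SI males lay close together, with a log2 level of 10.10 ± 0.22 (SD, n = 5) against 8.48 ± 0.64 (SD, n = 5). The log2 fold change was 1.52 (standard error 0.31, adjusted p = 0.00699, edgeR quasi-likelihood test with Benjamini-Hochberg adjustment over the 500 miRNAs). In this comparison 20 of 500 miRNAs (4%) were called, and 7 of them (1.4%) were higher in SI males, miR-34a-5p among them. The median log2 fold change was −0.01 over all 500.

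The level of miR-34b-3p in GH males was 3247 in G16M, 3051 in G19M, 1020 in G18M, 2507 in G20M, and 2568 in G21M. In SI males it was 4598 in I15M, 5197 in I19M, 3358 in I22M, 6258 in I17M, and 10176 in I20M. These groups did not overlap either, although I22M was only just above the highest GH male. Its log2 fold change was 1.26 (standard error 0.38, edgeR adjusted p = 0.0598). DESeq2, the tool of the study, called both miR-34a-5p (adjusted p = 0.000128) and miR-34b-3p (adjusted p = 0.0172), but it called 19.8% of the 303 miRNAs to which it gave an adjusted p. All 5 SI males were on one side of all 5 GH males for 13.8% of the 500 miRNAs, and for 2 of the 6 members.

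The other 4 members overlapped between SI and GH males. miR-34c-5p, from the same cluster as miR-34b-3p, was at 3794, 2820, 1659, 4288, and 2583 in the GH males G16M, G19M, G18M, G20M, and G21M. It was at 1175 in I15M, 1713 in I19M, 1689 in I22M, 1341 in I17M, and 4860 in I20M. Thus 4 SI males were at the low end of the GH range or below it, and I20M was above it. The log2 fold change was −0.49 (standard error 0.45, edgeR adjusted p = 0.589). Without I20M it was −1.09 (edgeR adjusted p = 0.171). miR-34c-3p spanned 241 to 760 in GH and 358 to 1521 in SI males, and its log2 fold change was 0.66 (standard error 0.45, edgeR adjusted p = 0.427). miR-34b-5p and miR-449a-5p had log2 fold changes of −0.67 and −0.13 with standard errors of 1.48 and 1.63, so a change was not detectable at their depth.

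Leaving out I20M, the male with the high epithelial list, gave a log2 fold change of 1.36 for miR-34a-5p (edgeR adjusted p = 0.0326) and of 0.91 for miR-34b-3p (edgeR adjusted p = 0.174). miR-34b-3p was past the threshold without the SI male I22M (edgeR adjusted p = 0.0393) and without the SI female I16F, who enters the shared spread (0.0224). Over 13 other ways to process or fit the counts, the log2 fold change of miR-34b-3p in males was 1.23 to 1.62 and 7 of the 13 put it past the threshold. The summed blood list was 9546 to 19936 in SI males and 6439 to 8691 in GH males, and the endothelial list 1654 to 4464 against 5631 to 7873. Both lists, the first of them carried by miR-486, thus separated the housing groups of males as miR-34a-5p did. So did the sum of the p53-linked list described below, at 49656 to 81823 in SI and 112889 to 129287 in GH males. Of the 500 single miRNAs, 13.8% separated the males in this way. In females the blood list was 9093 to 25808 in SI and 5086 to 9314 in GH rats. The endothelial list there was 511 to 7012 against 6053 to 14287, so both sums moved the same way but overlapped. Of the 4 blood miRNAs, all 4 estimates were above 0 in males, whereas in females 2 were above and 2 below. The part of these lists in the result was not tested. In these bulk punches, fewer cells of a type and less RNA per cell cannot be told apart.

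**Figure D2:**
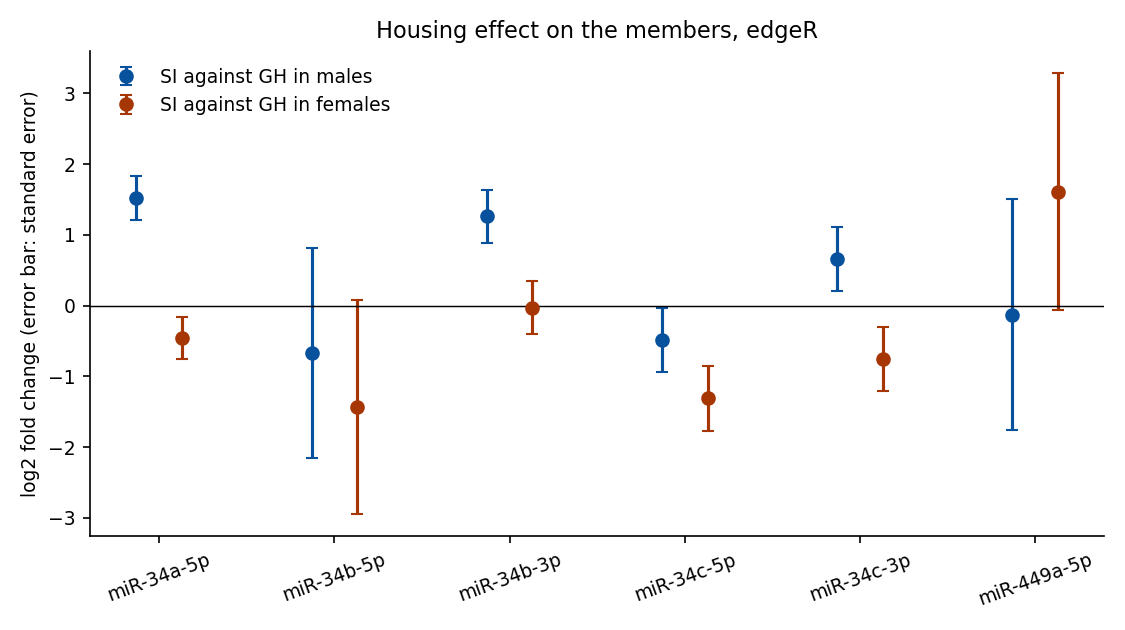
Log2 fold change of SI against GH rats (y axis) for each member (x axis), in males and in females, from the edgeR model of the 4 groups. Points are the estimates and bars the standard errors. miR-34a-5p is at 1.52 in males and −0.46 in females, and miR-34c-5p at −0.49 and −1.31.

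In females, none of the 6 members passed the threshold in SI compared to GH rats, and 2 of 500 miRNAs (0.4%) did. The member nearest to it was miR-34c-5p, whose level in GH females was 2925 in G15F, 2596 in G12F, 5724 in G16F, 3724 in G13F, and 8763 in G17F. In SI females it was 1867 in I14F, 3260 in I10F, 2807 in I17F, 1181 in I12F, and 448 in I16F. The SI females I14F, I12F, and I16F were below all GH females and the other 2 were within the GH range, and the value of I16F rested on 365 reads of 3 distinct sequences. The log2 fold change was −1.31 (standard error 0.46, unadjusted p = 0.00906, adjusted p = 0.112, edgeR). Without I16F it was −1.04 (edgeR adjusted p = 0.228), and without I10F, the highest SI female, it was past the threshold (edgeR adjusted p = 0.045). DESeq2 called miR-34c-5p in females (adjusted p = 0.0342), together with 17.9% of the 374 miRNAs with an adjusted p. The study also reported it as different between SI and GH females, by sequencing and by quantitative PCR in the same direction. That PCR used the sequenced RNA samples and samples of further rats. All 5 SI females lay on one side of the 5 GH females for 2% of the 500 miRNAs and for none of the members.

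miR-34a-5p in females went from 564, 543, 970, 461, and 908 in the GH rats G15F, G12F, G16F, G13F, and G17F to 483, 422, 756, 388, and 453 in the SI rats I14F, I10F, I17F, I12F, and I16F. The groups overlapped, and the log2 fold change was −0.46 (standard error 0.30, edgeR adjusted p = 0.417), or 0.11 with an offset for GC content, which moved the median of all 500 miRNAs from −0.13 to 0.39. miR-34b-3p was 2438 to 5605 in GH and 1871 to 6890 in SI females, and its log2 fold change was −0.03 (standard error 0.37). miR-34c-3p was 413 to 1845 against 272 to 980, and its log2 fold change was −0.76 (standard error 0.45, edgeR adjusted p = 0.361). The values of miR-34b-5p (−1.43, standard error 1.51) and miR-449a-5p (1.61, standard error 1.68) had errors as large as themselves.

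Averaged over the sexes, 88 of 500 miRNAs (17.6%) were called and none of the 6 members was. miR-34c-5p came closest, at −0.90 on the log2 scale (standard error 0.32, edgeR adjusted p = 0.0549), and DESeq2 called it (adjusted p = 0.0239) with 35.3% of the miRNAs it gave an adjusted p. In 5 of 20 fits that each left out 1 rat, namely G18M, I20M, G15F, G12F, or I10F, edgeR called it as well, and the lowest adjusted p was 0.0119, without I20M. miR-34a-5p had an average of 0.53 (standard error 0.22, edgeR adjusted p = 0.0884, and 0.0337 without G20M) and miR-34b-3p one of 0.61 (standard error 0.26, edgeR adjusted p = 0.109). The average of miR-34c-3p was −0.05 (standard error 0.32).

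The difference between the housing effect in females and that in males was tested as an interaction, which 2 of 500 miRNAs passed (0.4%). One of these was miR-34a-5p, at −1.99 on the log2 scale (standard error 0.43, edgeR adjusted p = 0.0407). DESeq2 gave −1.97 with an adjusted p of 0.00218 and called 1.02% of the 586 miRNAs with an adjusted p. The call was fragile, since 15 of the 20 fits that left out 1 rat had an adjusted p of 0.05 or more, up to 0.148, with estimates from −2.27 to −1.80. The call held without G20M, G15F, G12F, G13F, or I17F. With the I17 libraries exchanged between the sexes the estimate was −1.80 (edgeR adjusted p = 0.406), and with an offset for GC content −1.65 (edgeR adjusted p = 0.492). For miR-34b-3p and miR-34c-3p the differences were −1.29 (standard error 0.53, unadjusted p = 0.0233, adjusted p = 0.485, edgeR) and −1.42 (standard error 0.64, unadjusted p = 0.0372, adjusted p = 0.605, edgeR). The difference of miR-34c-5p was −0.82 (standard error 0.64), so the housing effects on it were not shown to differ between the sexes.

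No miRNA of the 500 was called between females and males, in GH rats (0%) or in SI rats (0%), where 12 and 50 miRNAs had an unadjusted edgeR p under 0.05. DESeq2 called none of the members either. miR-34a-5p was 1.79-fold higher in GH females compared to GH males, at 0.84 on the log2 scale (standard error 0.31, unadjusted p = 0.0116, adjusted p = 0.996, edgeR), and the groups overlapped. In SI rats, placed by the sample labels, the direction was the opposite, and every SI female (388 to 756) was below every SI male (980 to 1418). How many of the 500 miRNAs separated SI females from SI males in this way was not computed. The log2 fold change there was −1.15 (standard error 0.31, unadjusted p = 0.00106, adjusted p = 0.191, edgeR). The bounds 756 and 980 belong to I17F and I17M, whose sexes differ between labels and file names. With these libraries exchanged the groups overlapped, and the log2 fold change was −0.96 (edgeR adjusted p = 0.395). The comparisons share their groups with the housing effects above, so they are not separate evidence.

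Ratios between members of a library need no scaling between libraries. They were set for 3 pairs in each sex, which gave 6 exact permutation tests, two-sided, over all assignments of 5 rats against 5, whose smallest p is 0.00794. The ratio of miR-34b-3p to miR-34c-5p reads, the main arms of the 2 neighboring hairpins, was 0.856 in G16M, 1.08 in G19M, 0.615 in G18M, 0.585 in G20M, and 0.994 in G21M. In SI males it was 3.91 in I15M, 3.03 in I19M, 1.99 in I22M, 4.66 in I17M, and 2.09 in I20M. All SI males were above all GH males, with I20M, whose levels of both miRNAs were high, among them. Of the 500 single miRNAs, 13.8% separated the males in this way, miR-34b-3p among them, and the share over other ratios was not computed. The pairs were chosen with earlier results of these data known. On the log2 scale the ratio was 1.57 ± 0.54 (SD, n = 5) against −0.32 ± 0.40 (SD, n = 5), a difference of 1.89 (exact p = 0.00794, adjusted p = 0.0476). Leaving out each male in turn gave 1.73 to 2.03, and since groups that do not overlap cannot come to overlap in this way, the p stayed at its smallest value by construction.

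In females, the same ratio was 1.33, 0.939, 0.747, 1.2, and 0.64 in the GH rats G15F, G12F, G16F, G13F, and G17F. It was 1.1 in I14F, 0.899 in I10F, 2.31 in I17F, 1.58 in I12F, and 15.4 in I16F. The SI females I17F, I12F, and I16F exceeded all GH females and 2 did not. The difference of 1.25 on the log2 scale did not exceed the spread between rats (exact p = 0.0873, adjusted p = 0.143), and without I16F it was 0.56. Whether the ratio moved differently in the 2 sexes was not tested.

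The ratio of miR-34c-5p to miR-34c-3p compares the arms of a single hairpin. It was 3.71 to 8.44 in GH and 1.39 to 4.71 in SI males, where only I22M and G19M broke the separation. The difference was −1.20 on the log2 scale, from 2.59 ± 0.44 (SD, n = 5) in those kept in groups to 1.39 ± 0.64 (SD, n = 5) in those isolated (exact p = 0.0159, adjusted p = 0.0476). In 8 of the 10 fits that left out 1 male the adjusted p was above 0.05, up to 0.0952, and it stayed at 0.0476 without G19M or I22M. In females the ratio was 4.75 to 7.08 in GH and 1.52 to 6.87 in SI rats, a difference of −0.77 (exact p = 0.135, adjusted p = 0.162). The ratio of miR-34b-3p to miR-34b-5p differed by 2.66 in males (exact p = 0.0952) and 1.64 in females (exact p = 0.246), and it rests on the few reads of miR-34b-5p.

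**Figure D3:**
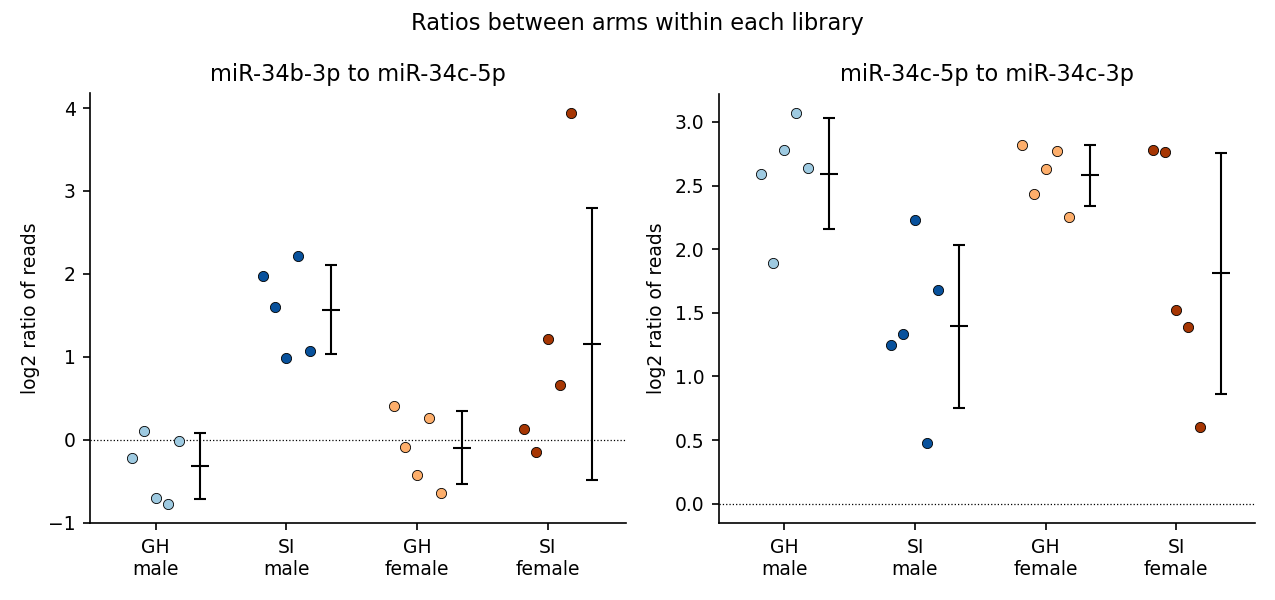
Log2 ratio of reads within each library (y axis) for miR-34b-3p to miR-34c-5p (left) and miR-34c-5p to miR-34c-3p (right), by group (x axis). Points are rats, and the bar beside them is the mean with its SD (n = 5). On the left the 5 SI males lie between 0.99 and 2.22, above the 5 GH males, and the SI female at 3.94 is I16F.

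Because the 4 members of the 5p arms share a seed, their levels were also summed. GH males had sums of 1855 to 5061 normalized counts and SI males of 2295 to 6298. GH females had 3142 to 9747, and SI females 901 to 3701. miR-34c-5p made up 84.7% to 89.4% of it in GH males and 82.6% to 89.9% in GH females. In SI males its share was 51.2% to 77.2%, and the share of miR-34a-5p was 22.5% to 46.2%, against 7.97% to 13.8% in GH males. In these SI males miR-34a-5p thus made up more of the shared seed, with sums that overlapped those of GH males. Sums and shares were not tested. They are built from the levels given above, so they are not separate evidence. In SI females the share of miR-34a-5p ran from 11.4% to 50.3%, the latter in I16F. The summed 3p arms with the seed AUCACUA exceeded the 5p sum in all 5 SI males, 1 GH male, 2 GH females, and 3 SI females.

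**Figure D4:**
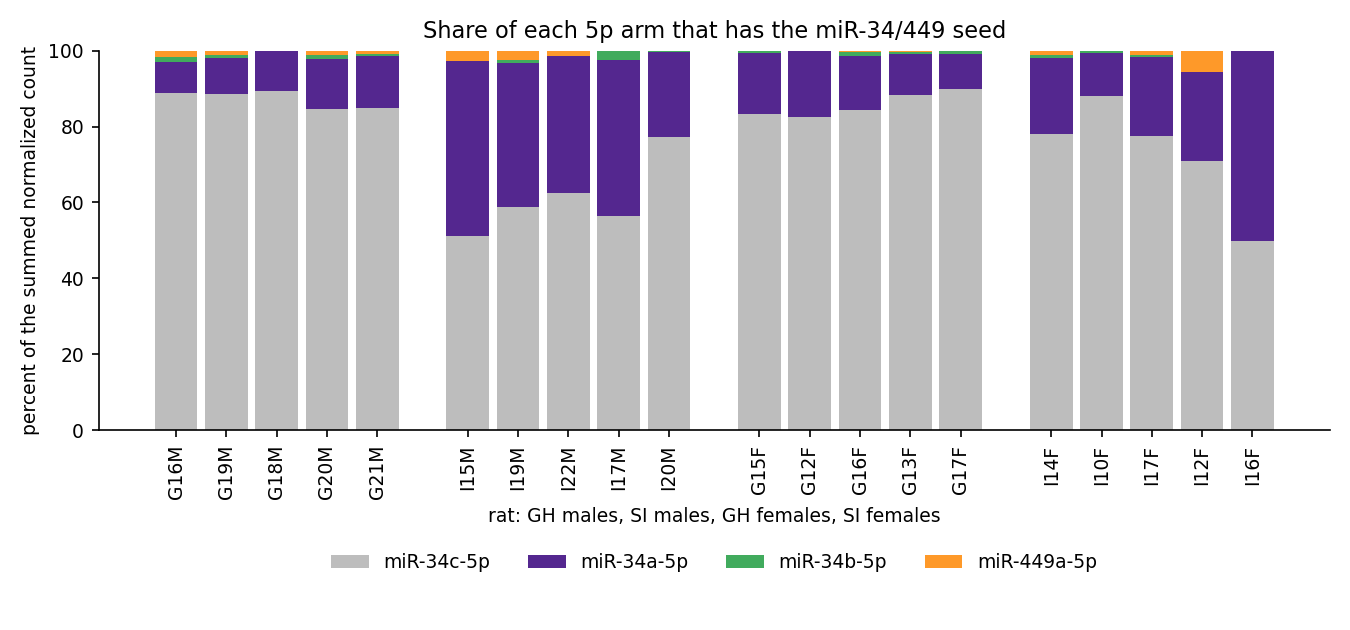
Percent of the summed normalized count of the 4 members with the shared 5p seed (y axis) that each made up in each rat (x axis, ordered by group). The purple share of miR-34a-5p is 22.5% to 46.2% in SI males and 7.97% to 13.8% in GH males.

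The deposited reads also give the forms of each member (isomiRs), that is reads that start or end at other bases than the reference or carry added nucleotides. The forms that follow show where the ends of the 4 members with at least 50 reads in every library varied, with the seed of each form in capitals.
miR-34b-3p, reference: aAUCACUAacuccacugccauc
miR-34b-3p, starting 1 base later: aUCACUAAcuccacugccauc
miR-34a-5p, 1 templated base longer: uGGCAGUGucuuagcugguuguu
miR-34c-5p, with an added A: aGGCAGUGuaguuagcugauugca
miR-34c-5p, 2 bases shorter: aGGCAGUGuaguuagcugauu
miR-34c-3p, with an added A: aAUCACUAaccacacagccagga

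Of the miR-34b-3p reads of all libraries, 80.2% began at the reference base and 18.1% began 1 base later, which shifts the seed to UCACUAA. Reads with a changed 5′ end were 14.2% to 25.5% of miR-34b-3p in every library, whereas their median was 0.913% for miR-34a-5p, 1.97% for miR-34c-5p, and 5.33% for miR-34c-3p. The reference form made up 39.4% of the miR-34a-5p reads and the form with 1 more templated base 28.4%, so miR-34a-5p varied mainly at its 3′ end. miR-34c-5p was the most uniform member, with 84.3% of its reads in the reference form and 3.78% with an added A. For miR-34c-3p the form with an added A held 16.7%.

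The shares of reads with a changed 5′ end, a shorter or longer 3′ end, or added nucleotides were compared between SI and GH rats for 4 members and both sexes. Of these 32 exact permutation tests, two-sided, 3 had a p under 0.05 and none passed adjustment, the lowest adjusted p being 0.127. At least 6 of the 32 would have had to reach the smallest p for any to pass, so groups that do not overlap could not pass alone. Both lowest values belonged to miR-34c-5p in males. Its reads with a shorter 3′ end were 9.39%, 5.8%, 8.49%, 6.95%, and 4.62% in G16M, G19M, G18M, G20M, and G21M, and 13.3%, 10.8%, 12.6%, 23.2%, and 11.2% in I15M, I19M, I22M, I17M, and I20M. Its reads with added nucleotides were 3.77%, 3.83%, 2.47%, 7.21%, and 4.4% in the same GH males and 15.8%, 14.1%, 12%, 13.1%, and 9.11% in the same SI males. For both shares every SI male was above every GH male, with I17M placed by its label. The other I17 library, I17F, had 7.49% and 6.77%, within the GH male ranges, so exchanging the 2 would end both separations. How often such shares of other miRNAs separated the males was not computed. The differences were 7.16 and 8.51 percentage points (exact p = 0.00794 for each, adjusted p = 0.127), and a read can count in both shares. In females the ranges overlapped for both, with 32.6% added nucleotides in I16F, whose miR-34c-5p came from 3 sequences. The third was miR-34b-3p with a longer 3′ end, whose share was 17.2% ± 0.794 (SD, n = 5) in SI males against 19.9% ± 2.26 (SD, n = 5) (exact p = 0.0159, adjusted p = 0.169).

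**Figure D5:**
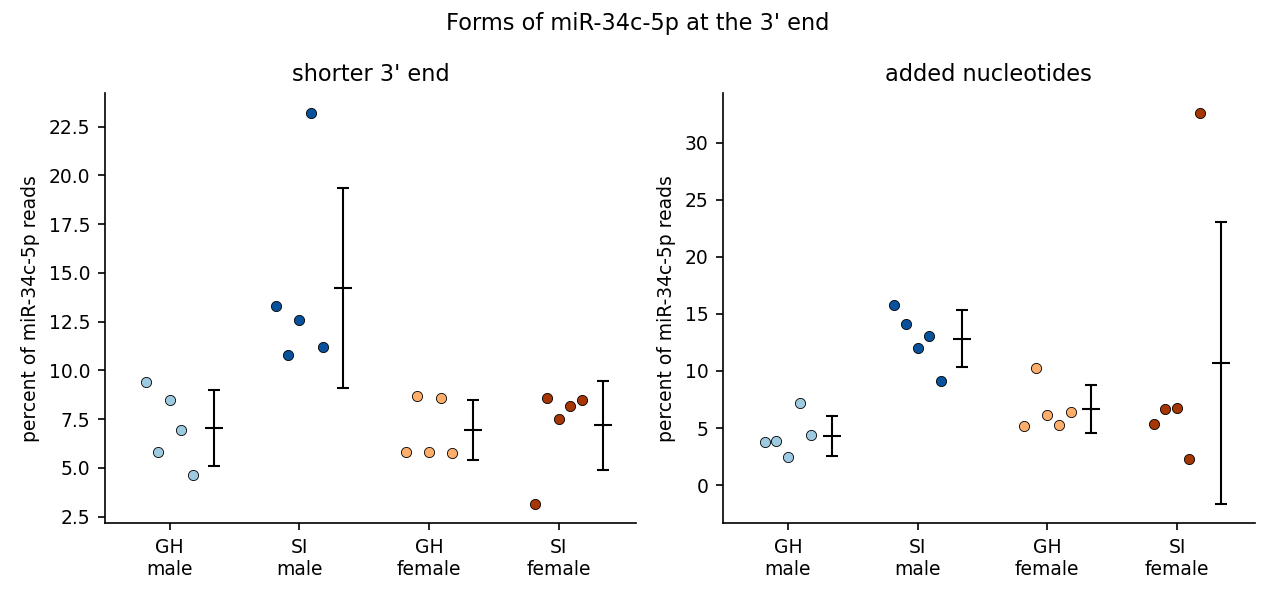
Percent of miR-34c-5p reads (y axis) with a 3′ end shorter than the reference (left) or with added nucleotides (right), by group (x axis). Points are rats, and the bar beside them is the mean with its SD (n = 5). With rats placed by the sample labels, SI males lie at 10.8% to 23.2% on the left and 9.11% to 15.8% on the right, above all GH males.

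Across the 20 rats, Pearson's r of the log2 levels of the 4 more abundant members was 0.09 to 0.73 over their 6 pairs, and with the group means subtracted it was positive for each pair, at 0.28 to 0.70. The permutations ran over all 20 rats without regard to group, so their p-values also take in differences between the groups. No p was computed with the group means subtracted. Between miR-34a-5p and miR-34b-3p, r was 0.73 (permutation p = 0.00024, adjusted over 6 pairs 0.0014) and Spearman's rho was 0.63 (permutation p = 0.0032, adjusted 0.019). With the 2 rats farthest from the median left out r was 0.53, and with the group means subtracted it was 0.55. The neighbors miR-34b-3p and miR-34c-5p had an r of 0.09 (permutation p = 0.69) and a rho of 0.11 (permutation p = 0.65), and an r of 0.28 with the group means subtracted. For miR-34c-3p, r was 0.67 with miR-34b-3p (permutation p = 0.0011, adjusted 0.0033, rho 0.60, r 0.48 without 2 rats and 0.66 within groups). It was 0.62 with miR-34c-5p (permutation p = 0.0039, adjusted 0.0078, rho 0.56, r 0.43 without 2 rats and 0.70 within groups) and 0.59 with miR-34a-5p (permutation p = 0.0059, adjusted 0.0088, rho 0.46, r 0.38 without 2 rats and 0.60 within groups). For miR-34a-5p and miR-34c-5p, r was 0.18 in all rats (permutation p = 0.44, rho 0.09) and 0.58 with the group means subtracted.

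Among the other 499 tested miRNAs, the most like each member were named by Pearson's r of the log2 levels over the 20 rats, which share one normalization. For miR-34a-5p these were miR-361-5p (r = 0.82, 0.73 with the group means subtracted), miR-30c-5p (0.79 and 0.31), and miR-34b-3p itself. For miR-34b-3p they were miR-34a-5p and both arms of miR-204, a miRNA known for its high level in the choroid plexus, with r = 0.72 for miR-204-3p and 0.69 for miR-204-5p. miR-34c-5p was most like miR-872-5p (0.91 and 0.86), miR-23a-3p (0.86 and 0.78), and miR-135a-5p (0.84 and 0.77). For miR-449a-5p the values were lower, at 0.61 for miR-151-5p, 0.58 for miR-450a-3p, and 0.55 for miR-497-5p.

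A list of 10 miRNAs that are also linked to p53 held 1 that was called in males, where 4% of all 500 were, and none in females, where 0.4% were. This was miR-143-3p, known from smooth muscle of vessels, which fell by 1.15 on the log2 scale in SI males (standard error 0.33, edgeR adjusted p = 0.045). Averaged over the sexes miR-143-3p (log2 fold change −0.99, edgeR adjusted p = 0.00594) and miR-16-5p, a repressor of the cell cycle, (−0.85, edgeR adjusted p = 0.0304) were lower, 2 of 10 beside 17.6% of all 500. The counts were thus close to the shares over all miRNAs. The median of the list was −0.24 in males and −0.59 in females, beside −0.01 and −0.13 over all 500. In males 4 of the 10 estimates were above 0 and 6 below, and in females all 10 were below 0. The share of all 500 estimates below 0 was not computed, so these directions, and those of the other lists, have no background beside them.

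Among the lists of cell type markers, none of the 7 tested choroid plexus and epithelial miRNAs of 12 was called in any comparison, with a median log2 fold change of 0.73 in males and −0.31 in females. In males 5 of the 7 estimates were above 0 and 2 below, and in females 3 were above and 4 below. In this list miR-449c-5p, miR-200a-3p, miR-141-3p, miR-429, and miR-96-5p were at or near 0. Its sum was 8289 to 34791 normalized counts in GH females and 6505 to 27123 in SI females. The highest values were in G17F and I17F, the rats with the highest miR-34c-3p of their groups. Among GH females, miR-34b-3p and miR-34c-5p were also highest in G17F, and miR-34a-5p in G16F. Among SI females, miR-34b-3p was highest in I16F, miR-34c-5p in I10F, and miR-34a-5p in I17F. None of the 3 neuronal and none of the 3 microglial or leukocyte miRNAs was called. Averaged over the sexes, where 17.6% of all 500 were called, miR-486 of the blood list was higher in SI rats (log2 fold change 0.92, edgeR adjusted p = 0.0039). The endothelial miR-126a-3p (−1.11, edgeR adjusted p = 0.0108) and the oligodendrocyte miR-338-3p (−1.74, edgeR adjusted p = 0.0162) were lower. The most abundant oligodendrocyte miRNA, miR-219a-2-3p, had an average of 0.30 (standard error 0.19, edgeR adjusted p = 0.305) at 15798 to 43665 normalized counts, and miR-338-3p lay between 0 and 1630. The part of these cell types in the values of the members was not tested.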

How the data were processed

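Small RNA libraries were made from 215 ng of total RNA per rat with 22 cycles of PCR. The authors trimmed adapters with cutadapt, assigned reads to miRBase v21 with seqbuster, and deposited the counts of every distinct sequence in each library, without normalization and with at least 2 reads each. No molecular identifiers were used in counting, so reads copied in PCR were not told apart from separate molecules.

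Counts were summed per miRNA, a read of several miRNAs counting for each. Of 617 miRNAs, the 500 that reached 10 counts in 5 or more of 20 libraries were fitted in 1 model of the 4 groups with edgeR 4.0.16 (TMM, quasi-likelihood F test, R 4.3.3), with Benjamini-Hochberg adjustment over all 500 and a threshold of 0.05. Standard errors are the fold change divided by the root of its F statistic. DESeq2 1.42.0 and limma 3.58.1 (voom) were alternatives. Ratios (pseudocount 1) and isomiR shares were compared with exact permutation tests, and correlations used 100000 permutations (Python 3.11.15, scipy 1.17.1). The fits were tested on simulated counts. Animal numbers occur in both housing groups for 2 pairs of males and 3 of females, but the study describes no pairing. Their deviations from the group means correlated at −0.30 to 0.09.

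The members, lists, and tests were chosen with earlier results of these data known. The text names the 6 members, the 3 miRNAs most like 4 of them, and list members past the threshold. The alternatives were other tools, size factors, count filters, groups, and reads, an offset for GC content, each rat left out, the 2 I17 libraries exchanged, and a replicate block. The alternatives added after seeing the data were DESeq2 with the exchange, rats of groups not compared left out, and the shared-number rats without the block.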

Additional observations from a re-analysis of the deposited data

Results flagged for a closer look

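Rats that stood far from the other 4 of their group were looked for in 100 sets of 5 values, of which chance alone would mark about 5%. The GH male G18M had the lowest log2 normalized count of its group for miR-34b-3p (10, the nearest rat at 11.29), miR-34b-5p (0.00, nearest 4.41), and miR-449a-5p (0.00, nearest 4.61). Without G18M the log2 fold change of miR-34a-5p in males was 1.36 (edgeR adjusted p = 0.0335) and that of miR-34b-3p was 1.06 (edgeR adjusted p = 0.131). The SI male I20M had the highest log2 normalized count of miR-34c-5p in its group (12.25, nearest 10.74).

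The other marks were shares of forms. Reads of miR-34a-5p with a changed 5′ end were 12.4% in the GH male G16M (nearest 0.463%) and 7.46% in the SI female I14F (nearest 2.05%). Those with a shorter 3′ end were 0.797% in the SI male I17M and 0.976% in the GH female G15F, who also had 30.7% with added nucleotides (nearest 21.3%). For miR-34b-3p, 2.67% had a shorter 3′ end in the SI male I15M (nearest 7%) and 8.98% had added nucleotides in the SI male I22M (nearest 7.16%). For miR-34c-5p, reads with a shorter 3′ end were 23.2% in the SI male I17M (nearest 13.3%) and 3.17% in the SI female I14F (nearest 7.49%), and those with a longer 3′ end were 2.54% in the SI female I10F and 0% in the other SI females. Added nucleotides in miR-34c-5p reached 10.3% in the GH female G12F (nearest 6.44%) and 32.6% in the SI female I16F (nearest 6.77%).

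The housing effect on miR-34a-5p differed between the sexes by −1.99 on the log2 scale (females minus males, edgeR adjusted p = 0.0407), and this call was lost in 15 of 20 fits that left out 1 rat.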

How the results depend on the processing

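Of the 6 members, the number called in males was 1, and it was 2, miR-34a-5p and miR-34b-3p, under the DESeq2 Wald test without a count filter (also with the I17 libraries exchanged), without a count filter in edgeR, with at least 10 counts in every library, with only the groups compared, with limma voom, and with an offset for GC content. Without each rat of the males it was 1 to 2, and without each female, a group not compared, 1 to 2. In females it was 0, and it was 1, miR-34c-5p, under both DESeq2 fits. Without each female in turn it was 0 to 1. Averaged over the sexes it was 0, and it was 1, miR-34c-5p, under both DESeq2 fits, without a count filter, with at least 10 counts in every library, with the I17 libraries exchanged, and with limma voom, and 2, miR-34a-5p and miR-34b-3p, with the GC offset. Without each of the 20 rats it was 0 to 1. For the difference between the sexes it was 1, and it was 0 with DESeq2 size factors in edgeR, with the I17 libraries exchanged in edgeR or DESeq2, and with the GC offset, and 0 to 1 without each rat. The cause of these changes was not tested. For the sex differences in GH and in SI rats it was 0 in every fit run.

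miR-34a-5p in males was past the threshold in 11 of 13 alternatives and in all 10 fits without a male, at 1.36 to 1.81. It was not past it in the 4 males with shared numbers, either with the replicate block (1.53, edgeR adjusted p = 0.0562) or without it (1.44, edgeR adjusted p = 0.237). With the replicate block 0 members were called in males, as in these males when fitted unblocked (0). The animal numbers are not described as pairs, and the deviations of same-numbered rats correlated at −0.30 to 0.09.

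Directions that turned all belonged to values not past the threshold. In males, miR-449a-5p turned to 0.18 (I17 libraries exchanged), 0.13 (the same in DESeq2), 0.44 (limma voom), and 0.09 (GC offset), and was −0.64 to 0.17 without each male, and miR-34b-5p turned to 0.28 (GC offset). In females, miR-34b-3p turned to 0.02 (DESeq2, and its size factors in edgeR), 0.01 (DESeq2 with the exchange), 0.85 (GC offset), 0.21 (replicate block), and 0.34 (the same rats without the block), and was −0.28 to 0.15 without each female. miR-34a-5p turned to 0.11 (GC offset). Averaged over the sexes, miR-34c-3p turned to 0.35 (GC offset) and was −0.25 to 0.20 without each rat. The GC offset moved the median log2 fold change of all 500 miRNAs from −0.01 to 0.19 in males, from −0.13 to 0.39 in females, and from 0.00 to 0.31 for the difference between the sexes.

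The log2 ratio of miR-34b-3p to miR-34c-5p stayed between 1.69 and 1.89 in males under its 4 alternatives. In females it was 0.56 to 1.58 without each rat, past the threshold only without I10F. The ratio of miR-34c-5p to miR-34c-3p in males was −1.41 to −0.97 without each male. No isomiR share passed in any of the alternatives run, which says nothing of stability, since at least 6 of 32 tests at the smallest p are needed to pass. Depth limited miR-34b-5p and miR-449a-5p most, with at most 98 reads in a library.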
